A study of Mus musculus with 48 samples.

Results

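The step from ZT7 to ZT13 was examined in the liver of control mice, which passed in these hours from rest in the light to activity and feeding in the dark. Zeitgeber time (ZT) counts hours from lights on, so that ZT13 lies just after lights off and ZT7 near the middle of the light phase. The comparison used 6 arrays, 3 at ZT13 and 3 at ZT7, of the 24 liver arrays and the 48 arrays of the series. All 6 came from undisturbed male mice of the strain labelled Bl6J, aged 10-12 weeks, with a separate mouse for each array, standard chow always available and no genetic change. Undisturbed control mice killed at ZT1 and ZT19 serve below to place the step in the day. The other group compared was mice under timed sleep restriction (TSR), killed at ZT13 or at ZT7. Their schedule was gentle handling to prevent sleep between ZT0 and ZT6 on 5 days and, after 2 days without handling, on 5 more. By the authors' account killing began in the evening of the last scheduled day but 1 and went on at 6 hour intervals. TSR mice killed at ZT13 may therefore have had fewer days of handling than those killed at ZT7. All 8 liver groups of 3 arrays, including TSR mice killed at ZT1 and ZT19, entered the fit and its estimate of the spread. Liver RNA was measured on Affymetrix Mouse Gene 1.0 ST arrays, which read each gene with a set of probes, and all probe sets with a gene symbol were compared, 24261 of 28815. Values are the authors' normalized fluorescence signals on a linear scale. Differences are log2 of the signal at ZT13 minus log2 of the signal at ZT7, with the standard error (SE) of the fit, so a positive value is higher at ZT13. The array numbers in the labels ran from 43 to 45 at ZT13 and from 40 to 42 at ZT7, so any effect of working through the arrays in that order and the time point cannot be told apart. Each RNA came from whole liver, in which fewer cells of a type and less RNA per cell cannot be told apart.

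The hepatic clock runs as a feedback loop. CLOCK and its partner BMAL1, the product of Arntl, bind E-box elements and activate the period and cryptochrome genes, whose proteins then repress that activity. REV-ERB alpha and beta (Nr1d1 and Nr1d2) repress Arntl. In a nocturnal rodent the evening also brings the daily peak of corticosterone, a rise in body temperature and the start of the main meal, and glucocorticoid-induced genes, heat shock genes and genes of glucose and lipid handling are known to respond to these signals in liver.

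The promoters of some of the genes that rose at ZT13 are printed here because they hold the elements through which the clock and heat shock factors are known to act. The E-box was searched as CACGTG and the pairing of the heat shock element's repeats as GAANNTTC, on both strands and with no overlap between the motifs. Each stretch runs from 200 bases before to 50 bases after a RefSeq gene start (build GRCm38.p6), 5′ to 3′ on the gene's strand, with the motif in capitals. Per1 and Cry1 each hold an E-box, beginning 166 and 60 bases before the start. Hspa1a holds a heat shock motif beginning 104 bases before the start, and Hsph1 holds an E-box beginning 19 bases before and a heat shock motif beginning 21 bases after it. Per1 and Hsph1 have 2 windows each, of which 1 is shown. The other Per1 window holds neither motif and the other Hsph1 window, which overlaps the one shown, holds both. A match describes the letters alone and is not evidence of binding.
Per1 (chr11:69098749-69098998, plus strand): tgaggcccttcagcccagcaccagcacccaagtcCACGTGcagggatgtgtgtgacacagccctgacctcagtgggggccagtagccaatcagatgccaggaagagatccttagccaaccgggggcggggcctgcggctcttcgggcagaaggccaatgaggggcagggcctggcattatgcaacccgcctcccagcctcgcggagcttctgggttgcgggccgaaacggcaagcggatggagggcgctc
Cry1 (chr10:85185005-85185254, minus strand): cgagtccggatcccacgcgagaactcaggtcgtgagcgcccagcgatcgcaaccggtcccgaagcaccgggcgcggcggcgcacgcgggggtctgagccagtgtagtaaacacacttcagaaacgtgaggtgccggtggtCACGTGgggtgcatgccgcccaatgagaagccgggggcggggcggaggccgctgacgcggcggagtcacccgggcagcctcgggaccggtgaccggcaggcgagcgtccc
Hspa1a (chr17:34972107-34972356, minus strand): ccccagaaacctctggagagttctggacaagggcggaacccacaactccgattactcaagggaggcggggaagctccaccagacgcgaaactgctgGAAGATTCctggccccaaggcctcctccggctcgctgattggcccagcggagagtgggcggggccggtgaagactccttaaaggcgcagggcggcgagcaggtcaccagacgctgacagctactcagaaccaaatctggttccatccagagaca
Hsph1 (chr5:149636266-149636515, minus strand): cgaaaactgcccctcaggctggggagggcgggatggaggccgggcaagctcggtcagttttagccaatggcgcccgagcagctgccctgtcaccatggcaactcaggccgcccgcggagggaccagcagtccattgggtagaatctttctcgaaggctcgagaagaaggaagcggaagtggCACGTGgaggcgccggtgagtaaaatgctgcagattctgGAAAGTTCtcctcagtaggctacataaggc

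At a Benjamini-Hochberg adjusted p below 0.05 over all 24261 probe sets, 550 (2.27%) differed between ZT13 and ZT7. Of these 207 (0.853%) were higher and 343 (1.41%) were lower at ZT13. A fit of the 6 arrays alone turned this balance, with 225 higher and 164 lower, and the methods' test gave 0 calls after adjustment, with 2613 probe sets at an unadjusted p below 0.05, against 3026 with limma. The changes were mostly modest, with a median difference of 0.63 among the probe sets that rose, 37 of which exceeded 2-fold, and of -0.55 among those that fell, 25 of which did. The median over all probe sets was -0.0016. Array 3 of ZT7 stood apart from its group. It lay over 0.5 (log2) from the mean of the other arrays of its group at 1559 of the 12803 probe sets with a signal above the median, against 373 to 656 for the ZT13 arrays and 538 and 577 for the other ZT7 arrays. Without it 248 probe sets (1.02%) differed, 94 higher (0.387%) and 154 lower (0.635%), of which 235 were among the 550. Leaving out a single other array gave 363 (ZT13 array 1), 254 (ZT13 array 2), 257 (ZT13 array 3), 288 (ZT7 array 1) and 392 (ZT7 array 2). There were 170 probe sets, 72 higher and 98 lower at ZT13, that passed with all arrays and with each of the 6 left out in turn. With 3 arrays against 3 an exact permutation test of a single gene cannot go below p = 0.1, so all calls come from limma's moderated test.

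**Figure D1:**
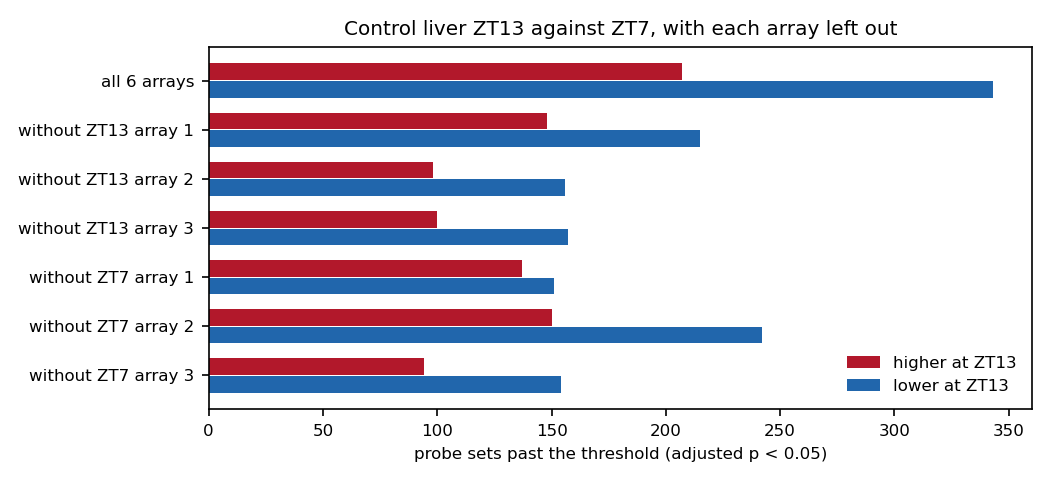
Number of probe sets past the adjusted threshold (x axis), higher at ZT13 (red) and lower at ZT13 (blue), with all 6 control arrays and with each left out. With all arrays 207 were higher and 343 lower, and without ZT7 array 3 there were 94 and 154.

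Among the core clock genes Per1, Per2 and Cry1 were higher and Nr1d1 was lower at ZT13, and 7 of 11 did not pass. Per1, a light- and hormone-responsive period gene, had signals of 794, 710 and 722 at ZT13, against 310, 486 and 188 at ZT7. All ZT13 arrays lay above all ZT7 arrays, and the ZT7 arrays spread widely (741.9 ± 45.4 at ZT13, 327.8 ± 150 at ZT7, SD, n = 3 each). The difference was 1.28 (SE 0.31, adjusted p = 0.032), but it passed the threshold only with all arrays and without ZT7 array 2, and without ZT7 array 3 it was 0.93 (adjusted p = 0.21). Per2, the second period gene, had 543, 677 and 513 at ZT13, against 185, 273 and 255 at ZT7, a difference of 1.29 (SE 0.20, adjusted p = 0.00083). Cry1, a cryptochrome that represses CLOCK and BMAL1, had 204, 247 and 256 at ZT13, against 83.9, 98.3 and 120 at ZT7, a difference of 1.24 (SE 0.19, adjusted p = 0.00085). The groups did not overlap for Per2 or Cry1, and both passed with any 1 of the 6 arrays left out.

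Nr1d1 went the other way. Its signals were 1347, 820 and 920 at ZT13, against 3469, 3669 and 2647 at ZT7. The ZT13 arrays averaged 1029 ± 280 and the ZT7 arrays 3262 ± 542 (SD, n = 3 each), 3.21-fold lower at ZT13 (log2 difference -1.68, SE 0.38, adjusted p = 0.021). Without ZT7 array 3 the difference was -1.83 (adjusted p = 0.043), and it missed the threshold without ZT13 array 2, ZT13 array 3, ZT7 array 1 or ZT7 array 2, with a highest adjusted p of 0.11. Nr1d2, its paralogue, had 1784, 1582 and 1595 at ZT13, against 1970, 1929 and 1725 at ZT7 (difference -0.18, adjusted p = 0.86). Across ZT1, ZT7, ZT13 and ZT19 the mean Nr1d1 signals in control liver were 520, 3262, 1029 and 128, and those of Cry1 were 299, 101, 236 and 489, so that ZT13 lay on the falling side of the Nr1d1 peak and on the rising side of that of Cry1.

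The other core clock genes described here did not pass. Clock averaged 771 ± 120 at ZT13 and 994 ± 92.6 at ZT7 (SD, n = 3 each), a difference of -0.37 (adjusted p = 0.18). Arntl averaged 190 ± 64.1 at ZT13 and 157 ± 31.7 at ZT7 (SD, n = 3 each), with overlapping groups (difference 0.23, SE 0.37, adjusted p = 0.91). Npas2, a paralogue of Clock, averaged 23.4 ± 3.53 at ZT13 and 35.7 ± 7.41 at ZT7 and was above background on none of these arrays by the deposited detection p. Cry2, Per3 and Rora had differences of -0.02, 0.07 and -0.15. In all, 3 of 11 core clock genes rose and 1 fell, against 0.853% and 1.41% of all probe sets, with a list median of -0.02. Without ZT7 array 3 the counts were 2 and 1.

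**Figure D2:**
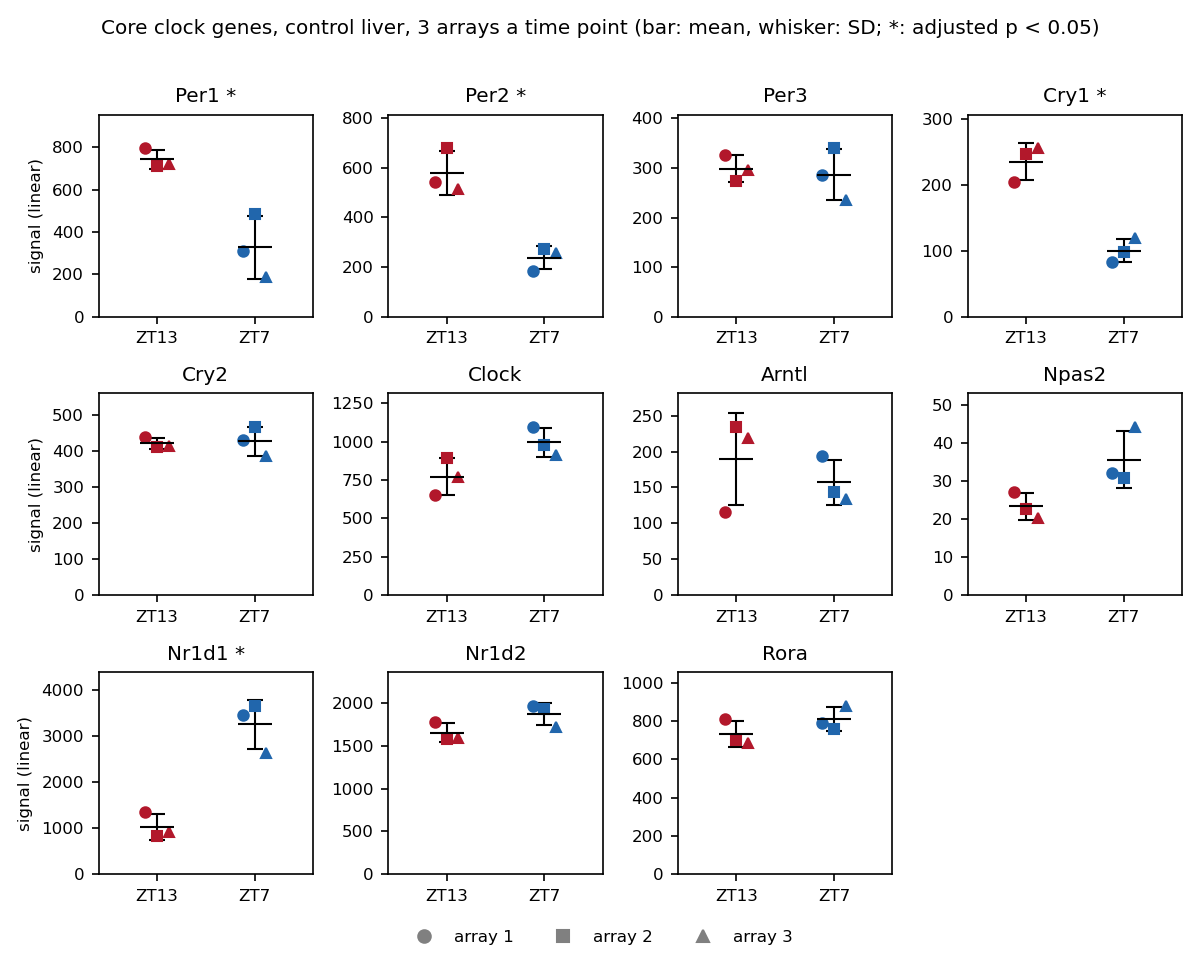
Signal (linear, y axis from 0) of 11 core clock genes in control liver at ZT13 (left, red) and ZT7 (right, blue), with a marker for each array, a bar for the mean and whiskers for the SD. Per1, Per2 and Cry1 sit higher at ZT13 and Nr1d1 lower, and the widest relative spread among these 4 is that of Per1 at ZT7, from 188 to 486.

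Usp2, a ubiquitin-specific protease under clock control, had signals of 1597, 1224 and 1476 at ZT13, against 496, 676 and 350 at ZT7. It was 2.91-fold higher at ZT13 (log2 difference 1.54, SE 0.26, adjusted p = 0.0021). Noct, which encodes the deadenylase-like protein nocturnin and is listed under its older symbol Ccrn4l, had 998, 1041 and 837 at ZT13, against 364, 271 and 196 at ZT7 (difference 1.83, SE 0.21, adjusted p = 6.1e-05). Tfrc, the transferrin receptor (difference 1.05), and Bhlhe40, a repressor of E-box genes (0.70), also rose, though Tfrc missed the threshold without ZT13 array 2 or ZT7 array 2, and Bhlhe40 without ZT13 array 2, ZT13 array 3 or ZT7 array 3. Of the 14 clock output genes measured 4 rose, against 0.853% of all probe sets, none fell and 10 did not pass. Dbp, the proline- and acid-rich factor that drives D-box genes, had a mean signal of 1041 ± 344 at ZT13 and 1162 ± 104 at ZT7 (difference -0.21, adjusted p = 0.91), with array values at ZT13 between 709 and 1396. Ciart, a repressor of CLOCK and BMAL1, is read by 2 probe sets, of which the dimmer passed (1.15, adjusted p = 0.0036) and the brighter did not (1.64, adjusted p = 0.10).

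Glucocorticoid-induced genes were among the largest rises. Zbtb16, a zinc finger repressor, had the largest rise of all probe sets named here, with 781, 689 and 756 at ZT13, against 190, 178 and 167 at ZT7 (4.16-fold, log2 difference 2.06, SE 0.26, adjusted p = 0.00018). Fkbp5, a co-chaperone of the glucocorticoid receptor, had 533, 607 and 588 at ZT13, against 227, 189 and 197 at ZT7 (difference 1.50, SE 0.17, adjusted p = 5.9e-05). Tsc22d3, the leucine zipper protein GILZ, had 831, 903 and 784 at ZT13, against 326, 347 and 305 at ZT7 (1.36, SE 0.13, adjusted p = 1.8e-05). In all 3 the arrays of each time lay close together and far from those of the other time, and all 3 passed with any array left out. Per1, Dusp1 (a MAP kinase phosphatase, 1.14), Mt2 (metallothionein 2, 0.99) and Tat (tyrosine aminotransferase, 0.34) also rose with all arrays. So 7 of 19 genes of the list were higher and 1 was lower, against 0.853% and 1.41% of all probe sets. The list median was 0.34. Igfbp1, which glucocorticoids induce and insulin represses, was the single member that fell, with 157, 137 and 125 at ZT13, against 367, 341 and 278 at ZT7 (-1.23, adjusted p = 0.036). The calls of Dusp1, Mt2 and Igfbp1 were lost when any single array was left out. That of Tat was lost without ZT13 array 2, ZT13 array 3, ZT7 array 2 or ZT7 array 3. The counts became 3 higher and 0 lower without ZT7 array 3. Of the 11 other genes, Klf9 and Sgk1 had differences of -0.52 and -0.11. Members of the metallothionein family are close in sequence, and the split of signal between Mt1 and Mt2 is uncertain.

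Of 20 heat shock chaperone genes measured, 10 rose with all arrays, none fell and 10 did not pass. Over all probe sets 0.853% rose and 1.41% fell. A positive difference was seen in 19 of the 20, against 10412 of all 21360 genes tested, each by its brightest probe set. The list median was 0.51, against -0.01 over all genes tested. Hsph1, an HSP110 nucleotide exchange factor, had 712, 1270 and 964 at ZT13, against 279, 243 and 321 at ZT7 (3.42-fold, log2 difference 1.77, SE 0.22, adjusted p = 0.00018). Dnajb1, an HSP40 co-chaperone, had 228, 305 and 302 at ZT13, against 130, 142 and 132 at ZT7 (1.04, SE 0.14, adjusted p = 0.00021). Hspa1a, the inducible HSP70, had 620, 994 and 971 at ZT13, against 341, 399 and 446 at ZT7 (1.10, SE 0.19, adjusted p = 0.0021). The lowest ZT13 array of each of these genes was array 1, and even it lay above every ZT7 array. Hspa1a has a near-identical neighbour, Hspa1b, so the signal may belong to either, and of its 2 dimmer probe sets 1 passed (0.73, adjusted p = 0.0015) and 1 did not (0.61, adjusted p = 0.093). Bag3 (0.84) and Dnaja1 (0.71), which work with HSP70, rose as well, and these 5 genes passed with any array left out.

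The other chaperones that rose were Chordc1 (0.70), Stip1 (0.56), Dnajb4 (0.52), Hsp90aa1 (0.50) and Hspa8 (0.39), and each of these calls was lost without at least 1 array. The number that rose was 7 without ZT7 array 3 and ranged from 5 (without ZT13 array 2 or ZT13 array 3) to 11 (without ZT13 array 1). The mitochondrial chaperones Hspd1 and Hspe1 had differences of 0.05 and 0.26, and Hsp90ab1, the constitutive HSP90, one of 0.11. Of the 21 promoter windows of the list, each of 300 bases, 9 (42.9%) held the heat shock motif, against 6.81% of the 19279 windows of all genes tested. Windows were matched for 15 of the 20 genes, of which 8 (53.3%) held it, against 8.02% of all genes matched. Both shares include members that did not rise. Of the 10 that rose, 8 were matched and 5 held it (62.5%), while Dnajb1, Stip1 and Dnajb4 did not. Hspb1, Hspd1 and Hspe1 held it and did not pass. Some sites count more than once, since the Hsph1 windows overlap and Hspd1 and Hspe1 share a site on opposite strands. These shares carry no test. Among 30 genes for endoplasmic reticulum chaperones and stress, 3 rose, against 0.853% of all probe sets, namely Creld2 (1.07), Manf (0.80) and Dnajb9 (0.60). None of these calls held without ZT7 array 3. The call of Creld2 was lost when any single array was left out, and that of Dnajb9 held only with ZT7 array 2 left out. The call of Manf was also lost without ZT13 array 2 or ZT7 array 2. Cirbp, a cold-inducible RNA-binding protein that falls with warmth, had 165, 129 and 119 at ZT13, against 176, 194 and 244 at ZT7 (-0.57, adjusted p = 0.062). Of the 2 cold-inducible RNA-binding protein genes measured, 1 had a positive and 1 a negative difference. Their median was -0.23 and 0 passed.

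Among genes of sugar handling 3 rose. Pfkfb3, which makes the glycolytic activator fructose-2,6-bisphosphate, had 650, 824 and 844 at ZT13, against 256, 337 and 306 at ZT7 (1.37, SE 0.23, adjusted p = 0.0021). Ppp1r3b, which targets a phosphatase to glycogen and favours its synthesis, had 1975, 2093 and 1962 at ZT13, against 689, 943 and 1011 at ZT7 (1.21, SE 0.13, adjusted p = 5.2e-05). The lowest ZT13 array exceeded the highest ZT7 array for both genes. Pfkfb1, the liver form of the bifunctional enzyme, rose by 0.71. These made up 2 of 32 genes of glycolysis and gluconeogenesis and 1 of 18 genes of glycogen metabolism, against 0.853% of all probe sets. No gene of these lists fell, and all 3 rises held with any array left out. Pck1 (0.24) and G6pc (-0.05), which encode enzymes of gluconeogenesis, and Pklr, liver pyruvate kinase, did not pass.

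Among genes of fatty acid and triglyceride synthesis a few rose, a few fell and most did not pass. Lpin1, a phosphatidate phosphatase of triglyceride synthesis, had 2977, 3723 and 3437 at ZT13, against 1026, 863 and 741 at ZT7, and gave the smallest adjusted p named here (3.87-fold, log2 difference 1.95, SE 0.16, adjusted p = 1.1e-06). Thrsp, the lipogenic factor Spot 14, had 3089, 3099 and 3099 at ZT13, against 938, 1111 and 927 at ZT7 (1.65, SE 0.24, adjusted p = 0.00063). Srebf1, the lipogenic transcription factor SREBP-1, rose by 0.76 and Fasn, fatty acid synthase, by 0.64. The call of Fasn held with ZT7 array 2 left out and was lost with each other array left out. Without ZT7 array 3 its difference was 0.62 (adjusted p = 0.11). In the same list Elovl3, an elongase of very long fatty acids, had 354, 259 and 353 at ZT13, against 1031, 926 and 1285 at ZT7 (3.36-fold lower, log2 difference -1.75, SE 0.25, adjusted p = 0.00065). Insig2, which holds SREBP in the endoplasmic reticulum, had 977, 999 and 932 at ZT13, against 2196, 1939 and 2909 at ZT7 (-1.26, SE 0.16, adjusted p = 0.00021). With Elovl5 (-0.55) this made 4 higher and 3 lower of 26 genes, against 0.853% and 1.41% of all probe sets, and 3 and 2 without ZT7 array 3. The call of Elovl5 was lost without ZT13 array 2, ZT13 array 3 or ZT7 array 3. None of 23 genes of cholesterol synthesis and uptake passed with limma's test, and 6 had an unadjusted p below 0.05.

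Of 33 genes of fatty acid oxidation and ketogenesis, 3 fell and 1 rose. Over all probe sets 1.41% fell and 0.853% rose. Plin2, the coat protein of lipid droplets, had 1926, 1867 and 1756 at ZT13, against 3847, 3719 and 3497 at ZT7, with little spread at either time (-0.995, SE 0.11, adjusted p = 5.1e-05). Ppara, the fasting-activated receptor, fell by 0.34 and Etfdh by 0.33 on the log2 scale, and Plin5 rose by 0.44. The calls of Ppara and Plin5 were lost when any single array was left out. That of Etfdh was lost without ZT13 array 2, ZT13 array 3, ZT7 array 1 or ZT7 array 3. In bile acid synthesis and transport 3 of 19 genes fell and none rose, also without ZT7 array 3. Hsd3b7, an enzyme of bile acid synthesis, had 1167, 826 and 911 at ZT13, against 1567, 1801 and 1806 at ZT7 (-0.85, adjusted p = 0.0021), though its dimmer probe set did not pass (-0.28, adjusted p = 0.90). Abcb11, the bile salt export pump, had 2203, 2256 and 2223 at ZT13, against 3079, 2975 and 3737 at ZT7 (-0.54, adjusted p = 0.00085). Cyp8b1, which sets the share of cholic acid, averaged 2249 ± 298 at ZT13 and 3184 ± 124 at ZT7 (-0.51, adjusted p = 0.0052). Cyp7a1, the rate-limiting enzyme of the pathway, had 3649, 3384 and 3427 at ZT13, against 4159, 3700 and 3571 at ZT7, and its groups overlapped (-0.13, adjusted p = 0.88).

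Several further metabolic regulators rose. Nampt, which makes the NAD precursor nicotinamide mononucleotide, had 1697, 1862 and 1844 at ZT13, against 894, 857 and 1001 at ZT7 (0.98, SE 0.15, adjusted p = 0.0012). Alas1, the rate-limiting enzyme of heme synthesis, had 5223, 6591 and 6421 at ZT13, against 3824, 2205 and 3527 at ZT7 (0.96, SE 0.19, adjusted p = 0.0060). Nr1i2, the xenobiotic receptor PXR, rose by 0.59 (adjusted p = 0.00068). All 3 held with any array left out. In ribosome biogenesis 3 of 34 genes rose, Nolc1 (0.96), Nop2 (0.72) and Nop58 (0.50), against 0.853% of all probe sets. Of the 34, 31 had a positive difference, against 10412 of all 21360 genes tested, and the median was 0.24. The call of Nop58 held with ZT13 array 1 left out and was lost with each other array left out. The 76 cytosolic ribosomal protein genes had no call and a median of 0.15, the 80 genes of oxidative phosphorylation no call and a median of 0.06, and the 38 proteasome genes no call and a median of -0.05, with 4, 3 and 6 genes at an unadjusted p below 0.05.

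**Figure D3:**
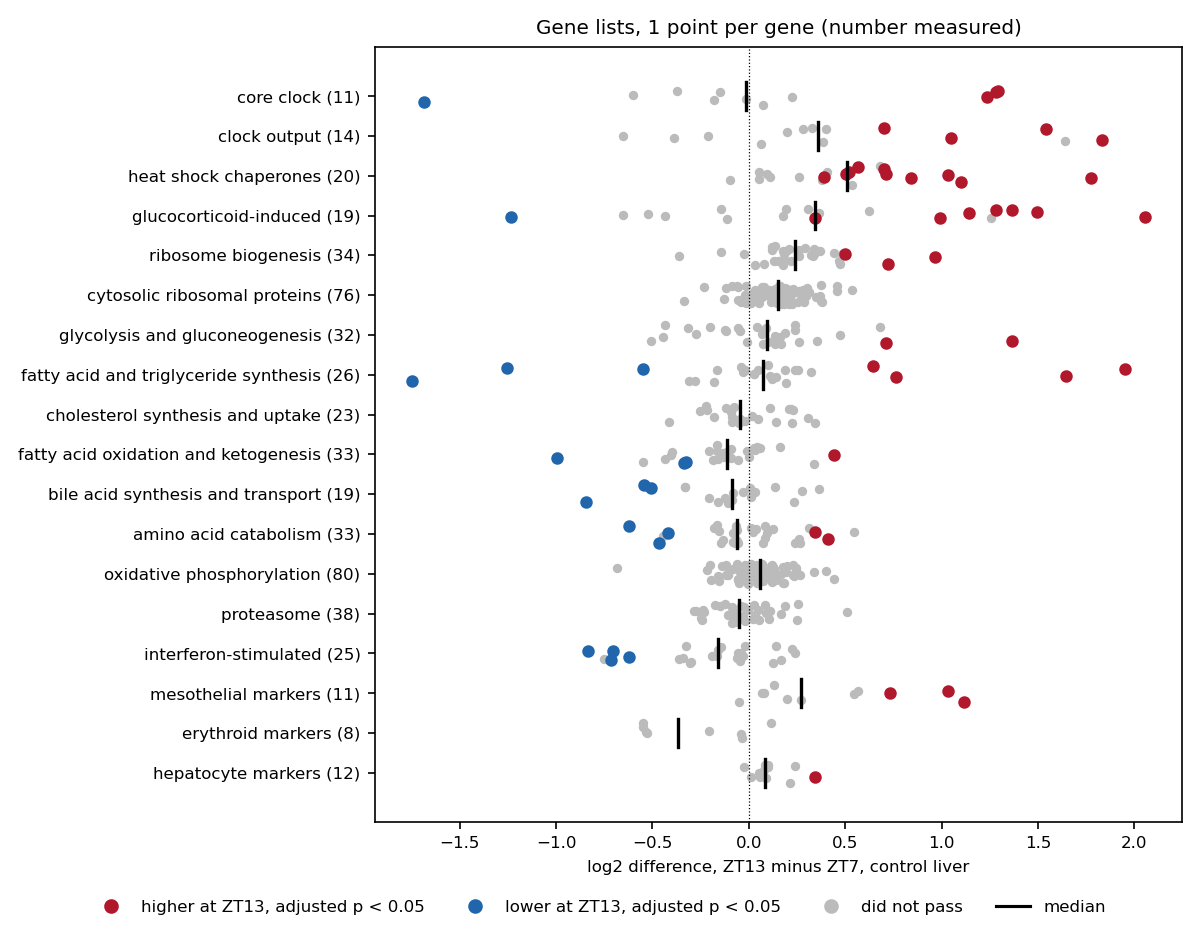
Log2 difference, ZT13 minus ZT7, in control liver (x axis) for each measured gene of 18 lists, with genes past the threshold in red (higher) or blue (lower), the others in grey, and the list median as a black line. Heat shock chaperones lie to the right with a median of 0.51, and 4 of 26 genes of fatty acid and triglyceride synthesis lie to the right and 3 to the left.

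The 15 largest rises and the 15 largest falls were taken among probe sets past the threshold whose groups did not overlap (17.2% of all probe sets did not overlap, in either direction) and whose signal lay above the median. Beside the genes above, the rises were Mfsd2a, a transporter of lysophospholipids (711, 927 and 675 at ZT13, against 324, 217 and 149 at ZT7, difference 1.80), Tcim (1.62), Lonrf3 (1.50), Fmo2, a flavin monooxygenase (1.49), P4ha1, a subunit of collagen prolyl hydroxylase (1.41), and Rcan1, an inhibitor of calcineurin (1.34). All 15 rises passed with any array left out. The falls were led by Elovl3 and Nr1d1. Depp1, a target of FOXO factors, had 479, 297 and 380 at ZT13, against 1318, 1412 and 636 at ZT7 (-1.48), and without ZT7 array 3, the low one, the difference was -1.85. Camk1d, a calcium-dependent kinase, had 444, 287 and 418 at ZT13, against 1084, 970 and 1101 at ZT7, but at a detection p of 0.05 it was above background on 1 of 3 ZT13 arrays and 0 of 3 ZT7 arrays, so no difference is given. Aqp8, a water channel of the bile canaliculus, had 288, 242 and 198 at ZT13, against 525, 643 and 760 at ZT7 (-1.40). The ubiquitin ligase genes Rnf125 (-1.22) and Rnf152 (-1.22), the kinase gene Pim1 (-1.15), the tight junction gene Cldn1 (-1.13), Mtx3 (-1.42), Spata22 (-1.26), Dtx4 (-1.13) and the ephrin gene Efna3 (-1.09) completed the falls with Insig2 and Igfbp1. Of the 15 falls 12 passed with any array left out, the exceptions being Nr1d1, Igfbp1 and Efna3. Efna3 missed the threshold without ZT13 array 2, ZT13 array 3, ZT7 array 1 or ZT7 array 2 (highest adjusted p 0.14), and its dimmer probe set did not pass and was above background on none of the arrays.

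**Figure D4:**
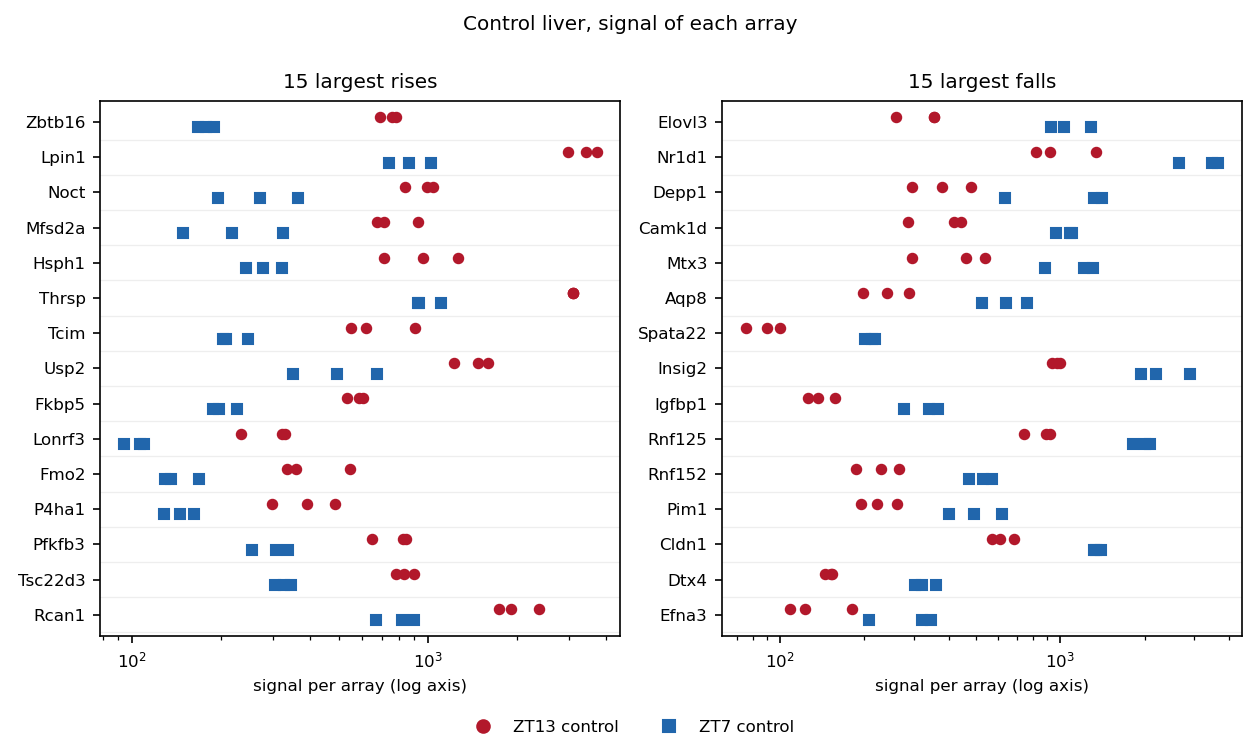
Signal of each control array (log x axis) for the 15 largest rises (left panel) and the 15 largest falls (right panel), with ZT13 as red circles above ZT7 as blue squares. The groups are apart for every gene, and the gap is narrowest for Efna3, at 181 for the highest ZT13 array and 208 for the lowest ZT7 array.

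Placed in the day, 176 of the 207 probe sets that rose (85.0%) had their highest control mean of the 4 time points at ZT13, against 40.2% of all probe sets with a positive difference, and 131 (63.3%) had their lowest at ZT7, against 42.2%. Of the 343 that fell, 299 (87.2%) had their lowest mean at ZT13, against 47.8% of all with a negative difference, and 214 (62.4%) their highest at ZT7, against 34%. These shares are a description, since a large difference between ZT13 and ZT7 itself favours an extreme at either time. The E-box was found in 14.6% of 199 promoter windows of the genes that rose, in 9.22% of 347 windows of those that fell and in 8.15% of all windows, also without a test. In the same order the heat shock motif was found in 10.6%, 8.07% and 6.81%. The other motifs searched were TGACGTCA (3.52%, 2.31% and 2.34%), the D-box TTATGTAA (1.01%, 0.576% and 0.814%) and TAGGTCA, which ROR receptors bind (2.01%, 4.03% and 2.22%). RefSeq windows were matched for 152 of 188 genes that rose and 239 of 307 that fell.

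The same step was measured in TSR mice on separate arrays, numbered 3, 6 and 11 at ZT13 and 5, 8 and 10 at ZT7. These numbers did not run with the time point as those of the control arrays did. Any effect of that order and the control minus TSR difference of the step therefore cannot be told apart. TSR mice killed at ZT13 may also have had fewer days of handling, and any effect of this cannot be told apart from their time point. In TSR liver 944 probe sets (3.89%) differed, 379 higher (1.56%) and 565 lower (2.33%) at ZT13. Of them 197 did so in the same direction as in control liver, which is 35.8% of the control calls and 20.9% of the TSR calls. Of the 550 control calls 480 had the same sign in TSR, but the share with the same sign over all probe sets was not counted, so this is a description. Usp2, Noct, Fkbp5, Tsc22d3 and Lpin1 rose in both, by 1.54, 1.83, 1.50, 1.36 and 1.95 in control liver and by 1.69, 2.30, 1.19, 1.03 and 1.06 in TSR liver. Other large rises did not pass in TSR liver, where Zbtb16 had a difference of 0.89 (adjusted p = 0.060), Thrsp 0.84 (0.052), Hsph1 0.41 (0.31) and Fmo2 -0.20 (0.66), and the control minus TSR difference did not pass for any of these 4 (adjusted p = 0.24, 0.34, 0.12 and 0.052). That test passed for 9 probe sets (0.0371%), and for 1 (0.00412%) without control ZT7 array 3. It also passed for 1 without control ZT13 array 2 or ZT13 array 3 and for 2 without control ZT7 array 2. No TSR array was left out in turn. Igfbp5, a binding protein of insulin-like growth factors, passed with any of the 6 control arrays left out. It had 306, 270 and 254 at ZT13, against 133, 116 and 133 at ZT7, in control liver, and 306, 207 and 246 at ZT13, against 372, 437 and 453 at ZT7, in TSR liver. It rose by 1.12 in control liver and fell by 0.75 in TSR liver on the log2 scale (difference 1.86, SE 0.23, adjusted p = 0.0017). The chaperone genes Hsp90aa1 (by the dimmest of its 3 probe sets) and Stip1 were also among the 9, with control steps of 0.62 and 0.56 and TSR steps of -0.55 and -0.40, the last of which did not pass in TSR liver alone (adjusted p = 0.057).

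**Figure D5:**
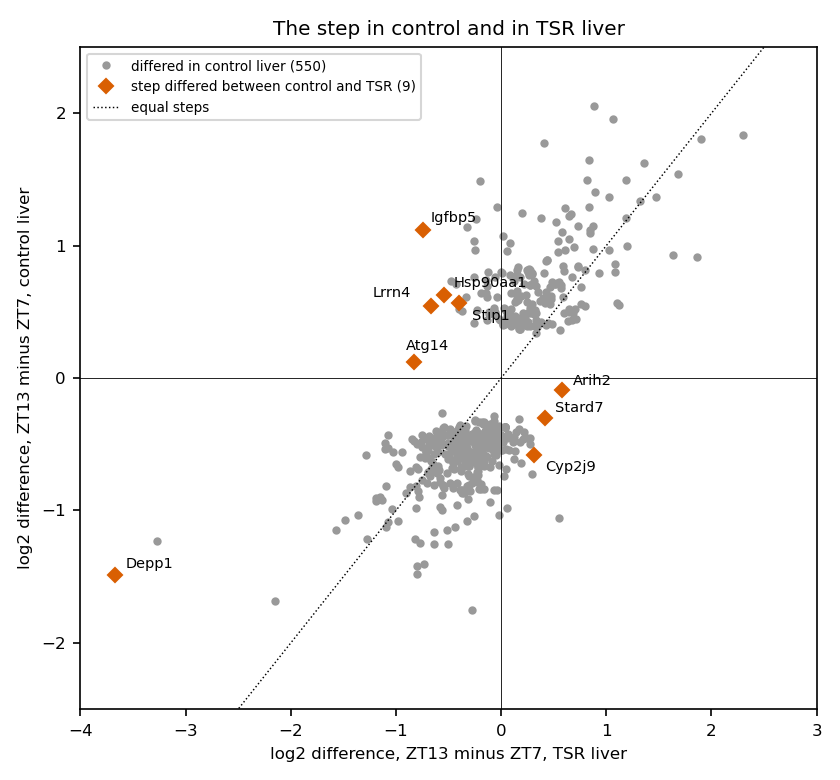
Log2 difference, ZT13 minus ZT7, in control liver (y axis) against that in TSR liver (x axis), for the 550 probe sets that differed in control liver (grey) and the 9 whose step differed between control and TSR (orange, named). Igfbp5 lies at 1.12 in control and -0.75 in TSR liver, and the dotted line marks equal steps.

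Markers of the cell types in liver were followed beside these genes. Over all probe sets 0.853% rose and 1.41% fell. Of all 21360 genes tested 10412 had a positive and 10948 a negative difference. Of 12 hepatocyte markers 11 had a positive difference and 1 (Tat) passed, and their summed signal ranged from 92067 to 98397 at ZT13 and from 87322 to 90714 at ZT7, without overlap. Alb, albumin, had 10234, 10865 and 11425 at ZT13, against 10002, 9898 and 10951 at ZT7, which overlapped. Of 11 mesothelial markers, which line the surface of the liver, 3 rose, Igfbp5 (1.12), Upk1b and Upk3b, and their summed signal ranged from 2652 to 2895 at ZT13 and from 2374 to 2598 at ZT7. Without ZT7 array 3, 2 of them rose. Of the 11 markers 10 had a positive difference, with a median of 0.27. In TSR liver the median of these markers was -0.26, and 2 fell and 0 rose. By the detection p Upk1b was above background on 1 of 3 ZT13 arrays and 0 of 3 ZT7 arrays and Upk3b on none, so no size is given for either. Igfbp5, which is on that list, was among the 9 probe sets whose step differed from TSR. So was Lrrn4, also on the list, which was above background on none of the 6 control arrays, and the part of mesothelium in these results was not tested. Of 8 erythroid markers 7 had a negative difference and none passed. Their summed signal ranged from 6948 to 9169 at ZT13 and from 9834 to 13333 at ZT7, without overlap, and the globin probe sets cannot be told apart by gene. The summed signal of stellate cell and fibroblast markers ranged from 5075 to 5517 at ZT13 and from 5613 to 6052 at ZT7, and that of adipocyte markers from 717 to 845 at ZT13 and from 870 to 938 at ZT7. The part of these cell types in the results was not tested. Kupffer cell, stellate cell, cholangiocyte, lymphocyte, neutrophil, pancreatic and adipocyte markers had no call, and 1 of 12 sinusoidal endothelial markers (Stab2, -0.31) fell. In the interferon-stimulated list 4 of 25 genes fell, Rsad2 (-0.83), Xaf1 (-0.72), Mx2 and Usp18 (-0.62). None did so without ZT13 array 2, without ZT13 array 3 or without ZT7 array 3. Mx2 had 107 on ZT7 array 3, against 68.6 and 69.5 on the other ZT7 arrays and at most 51.7 on the ZT13 arrays, none of which was above background by the detection p.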

How the data were processed

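Liver RNA was labelled and hybridized by the authors, one mouse per array. The deposited intensity values were normalized by the authors with d-Chip and are linear, with a lowest value of 1. Its version and settings, the genome build and any joint scaling with adipose arrays were not given in the sources used here. Detection p-value columns, deposited beside the signals, served for an alternative filter and to say where a named gene was above background (p of 0.05 or less), and no size is given where a group had no such array, although the detection p did not follow the signal throughout (Pklr, with a mean signal of 4817, passed on 0 of 3 ZT13 arrays). Of 24261 probe sets with a symbol, 23125 matched RefSeq (GRCm38.p6) and 3335 symbols were updated. Signals were floored at 1 and transformed to log2. Means of the 8 liver groups were fitted over 24 arrays (16 residual degrees of freedom) in limma 3.58.1 (R 4.3.3) with lmFit and eBayes with a variance trend, and p values were adjusted with Benjamini-Hochberg at 0.05. No filter on signal was used. The test of the control minus TSR difference came from the same fit. P values set each difference against the spread between mice pooled over all 8 groups, TSR groups included, and not that of the 6 compared mice alone. Their precision is limited by how few arrays there were. The fit was tried on 1 simulated data set of 24261 probe sets with independent noise and no outlying array, in which 200 were changed at ZT13. It recovered 60% of log2 changes of 0.5 and 88% of changes of 1, with 10 false calls. For the control minus TSR difference 4 unchanged probe sets passed. Gene lists used 1 probe set per gene, the brightest over the 6 arrays, whereas the shares given beside their counts are over all probe sets. Of the 550 calls 521 (191 higher, 330 lower) had a signal above the median and no overlap. The share called is therefore larger among brighter probe sets, and list counts are not matched to it for signal. Named genes were Per1, Usp2 and Nr1d1, the core clock list, the 15 top changes in each direction past the threshold without overlap and with a signal above the median, up to 6 list members with the smallest adjusted p or a stated role, and the genes whose step differed from TSR. Some genes are not reported here and were left out of the list counts, though not of the fit. Predicted genes were counted and not named, and Ciart, Cirbp, Klf9 and other members without a call were named for their role. The members and lists were chosen with earlier results of these data known, and describe counts and medians without a set test. Motifs were searched in RefSeq windows of 250 bases before to 50 after a gene start. The methods' test, other filters, quantile normalization, array weights, other sets of arrays, a replicate block and leaving out each of the 6 control arrays were the alternatives. The arrays labelled epididymal adipose tissue were not analysed here. Figures were drawn with matplotlib 3.10.9.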

Additional observations from a re-analysis of the deposited data

Results flagged for a closer look

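For 9 probe sets the step from ZT7 to ZT13 differed between control and TSR liver by limma's test of the difference itself, given here as control minus TSR on the log2 scale. The differences were 1.86 for Igfbp5 (adjusted p = 0.0017), 0.949 for Atg14 (0.032), 1.17 for Hsp90aa1 (0.032), 2.18 for Depp1 (0.032), -0.716 for Stard7 (0.032), 0.961 for Stip1 (0.032), -0.896 for Cyp2j9 (0.035), -0.669 for Arih2 (0.049) and 1.22 for Lrrn4 (0.049). Lrrn4 was above background on none of the 3 ZT13 and 3 ZT7 control arrays by the deposited detection p, so the size of its difference is uncertain. Without ZT7 control array 3 Igfbp5 passed (1.89, adjusted p = 0.0055) and the other 8 did not. Depp1 had 479, 297 and 380 at ZT13, against 1318, 1412 and 636 at ZT7, in control liver, and 189, 216 and 166 at ZT13, against 2225, 2625 and 2380 at ZT7, in TSR liver, so it fell in both and by more in TSR. Atg14, an autophagy gene, had 287, 299 and 328 at ZT13, against 275, 300 and 267 at ZT7, in control liver, and 232, 216 and 183 at ZT13, against 380, 391 and 345 at ZT7, in TSR liver. Cyp2j9, a cytochrome P450, had 240, 266 and 229 at ZT13, against 360, 369 and 367 at ZT7, in control liver (-0.58), and 283, 250 and 295 at ZT13, against 219, 220 and 224 at ZT7, in TSR liver (0.32). Arih2 is read by 3 probe sets, and the other 2 had adjusted p values of 0.47 and 0.45 for the difference of the step. The other probe sets of Hsp90aa1 had 0.11 and 0.076.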

How the results depend on the processing

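The 550 calls (207 higher, 343 lower at ZT13) became 935 (355 and 580) with the 12 control arrays alone, 903 (317 and 586) with these and ZT7 array 3 left out, 972 (339 and 633) with array quality weights and 209 (86 and 123) with quantile normalization and ZT7 array 3 left out. The settings with ZT7 array 3 left out jointly with another change were chosen after seeing the data. A fit of the 6 arrays alone gave 389 calls, of which 225 were higher and 164 lower. The methods' test gave 0 calls and 0 in either direction after Benjamini-Hochberg, with 2613 probe sets at an unadjusted p below 0.05, and limma's test 3026. Leaving out 1 of the 6 control arrays at a time gave between 248 and 392 calls, 94 to 150 of them higher and 151 to 242 lower. The 9 probe sets whose step differed from TSR became 1 to 8 in this way, 1 without a variance trend, 1 with array quality weights and 1 with quantile normalization and ZT7 array 3 left out. The cause of these changes was not tested. The counts under the filters on signal or detection, log2 of signal plus 16, all probe sets of the array and quantile normalization stayed within 1.5 times the main counts. Of 102 single gene results under these alternatives, 1892 values in all, 1432 kept their direction and their side of the threshold, 452 kept the direction and missed the threshold, 2 newly passed (Clock, with array quality weights at -0.49 and with the 12 control arrays less ZT7 array 3 at -0.43) and 6 changed sign, all in genes that did not pass. These were Arntl with array quality weights (-0.079), Cry2 with quantile normalization (0.0027) and without ZT7 array 2 (0.048), and Per3 without ZT7 array 3 (-0.063), with the 12 control arrays less ZT7 array 3 (-0.063) and with quantile normalization less that array (-0.041). With 1 array left out at a time Cry2 ranged from -0.087 to 0.048 and Per3 from -0.063 to 0.201.

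The labels number the mice of each group from 1 to 3. Deviations from the group means correlated at 0.135, -0.258 and -0.1 for the same-numbered pairs, and 0 of 3 ZT13 arrays correlated best with the ZT7 array of its own number, so the numbers were not taken to pair the mice. A fit with the replicate number as a block gave 549 calls, 216 higher and 333 lower, of which 498 were among the 550, and 10 probe sets whose step differed from TSR. Under the block 8 of the single gene results missed the threshold and none changed sign.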

Other observations

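Further genes that differed between ZT13 and ZT7 are given here by lists that were chosen after their values were seen, so that the counts carry no test. Of 14 tight junction genes 5 fell and none rose, against 1.41% and 0.853% of all probe sets. Beside Cldn1, Ocln, which encodes occludin, had 183, 175 and 149 at ZT13, against 327, 312 and 323 at ZT7 (adjusted p = 0.00071). Cldn2, Marveld2 and Tjp3 (-0.48) also fell. By the detection p Ocln and Cldn2 were above background on 0 of 3 ZT13 arrays and 1 of 3 ZT7 arrays, and Marveld2 on 1 of 3 ZT13 arrays and 0 of 3 ZT7 arrays, so no size is given for these 3, and the calls of Cldn1, Ocln and Cldn2 remained without ZT7 array 3. Of 10 genes of polyamine synthesis and turnover 2 rose and 8 did not pass, with a list median of -0.08. Srm, spermidine synthase, had 1602, 1936 and 1690 at ZT13, against 740, 785 and 713 at ZT7 (1.22, SE 0.15, adjusted p = 0.00010), and Amd1, which encodes S-adenosylmethionine decarboxylase, rose in all 4 of its probe sets, by 0.55 to 0.86, though these may read the same or near-identical copies. Odc1, ornithine decarboxylase, had 850, 1081 and 1005 at ZT13, against 735, 672 and 741 at ZT7 in its brighter probe set (0.44, adjusted p = 0.11).

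Of 23 WNT receptors and pericentral targets 4 fell and none rose, against 1.41% and 0.853% of all probe sets. Fzd6, a frizzled receptor, had 175, 145 and 143 at ZT13, against 292, 273 and 263 at ZT7 (-0.84, SE 0.10, adjusted p = 9.9e-05). Lgr5, the R-spondin receptor, had 127, 109 and 142 at ZT13, against 215, 185 and 258 at ZT7 (-0.80, adjusted p = 0.0069). Tcf7l2 (-0.58) and Rnf43 (-0.64) fell as well, while the pericentral genes Glul (0.02), Cyp2e1 (0.11) and Axin2 (-0.39) did not pass. Without ZT7 array 3 the calls of Fzd6 and Tcf7l2 remained and those of Lgr5 (-0.67, adjusted p = 0.059) and Rnf43 did not. Srsf5, a splicing factor read by 2 probe sets, fell in both (-0.91 and -0.87), with 863, 906 and 728 at ZT13, against 1368, 1426 and 1935 at ZT7 in the dimmer, and Gabarapl1, an autophagy gene, had 726, 610 and 718 at ZT13, against 942, 1205 and 1296 at ZT7 (-0.74, adjusted p = 0.0033). Cyp26a1, which degrades retinoic acid, had 400, 503 and 629 at ZT13, against 191, 202 and 225 at ZT7 (1.29, adjusted p = 0.0026), and a difference of -0.04 in TSR liver, where the test of the control minus TSR difference gave an adjusted p of 0.13.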
